A study of Homo sapiens with 26 samples.

Results

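The multidrug resistant and multidrug sensitive lines were the extremes of a panel of 26 B-cell cancer cell lines that had been screened against cyclophosphamide (C), doxorubicin (H) and vincristine (O). A line was taken as multidrug resistant when it was resistant to 2 or 3 of the drugs and sensitive to none, and as multidrug sensitive when it was sensitive to 2 or 3 and resistant to none. This gave 10 of the 26 lines, 5 in each class, and the other 16 lines belonged to neither. The resistant lines were DB, OCI-Ly7, RIVA and U2932 of diffuse large B-cell lymphoma (DLBCL) and KMS-12-BM of multiple myeloma (MM). The sensitive lines were NU-DHL-1, OCI-Ly19 and SU-DHL-5 of DLBCL and MM1S and OPM-2 of MM. All were untreated established lines harvested in exponential growth, with 1 Affymetrix HG-U133 Plus 2.0 array for each line, so that the line was the replicate and p-values measure the spread between lines. DB, SU-DHL-5 and KMS-12-BM were grown with 20% serum and the other 7 with 10%. Only 1 resistant line was of MM, and each MM line is known to carry its own driver translocation: CCND1 in KMS-12-BM, MAF in MM1S, and NSD2 with FGFR3 in OPM-2. MM1S is a subclone that was selected for sensitivity to glucocorticoids. RIVA and U2932 are commonly classed as activated B-cell type DLBCL, so resistance and this subtype cannot be fully told apart within DLBCL.

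The 3 drugs kill by different routes. Cyclophosphamide crosslinks DNA and its aldehyde intermediate is removed by aldehyde dehydrogenases, doxorubicin traps topoisomerase II on DNA, and vincristine binds tubulin and stops the mitotic spindle. Efflux pumps such as P-glycoprotein export doxorubicin and vincristine, and the BCL2 family sets how readily a damaged cell dies. Germinal centre B cells and plasma cells also differ in antigen presentation, in nuclear factor κB (NF-κB) activity and in signalling through the kinase ERK, which induces its own inhibitors as a feedback.

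Drug response was given as AUC0, an area under the dose response curve that counts only the part above 0. The curve compares the growth rate of treated cells with that of untreated cells, so a high value means little slowing of growth. The classes were made from these values within each disease, so they are described and not tested. Mafosfamide, which needs no activation by the liver, stood in for cyclophosphamide. For C the AUC0 values were 346 in DB, 258 in OCI-Ly7, 296 in RIVA, 330 in U2932 and 328 in KMS-12-BM, against 172 in NU-DHL-1, 202 in OCI-Ly19, 165 in SU-DHL-5, 242 in MM1S and 303 in OPM-2. OCI-Ly7, the lowest of the resistant lines, was intermediate for C, and its 95% confidence interval of 203 to 278 overlapped that of OCI-Ly19 at 163 to 216. For H the resistant lines had 276, 325, 327, 295 and 331 in the same order, and the sensitive lines had 201, 167, 202, 227 and 329. OPM-2 was intermediate for H, with a value beside that of KMS-12-BM, and owed its class to C and O. For O the resistant lines had 131, 114, 109, 85 and 112, and the sensitive lines had 54 in OCI-Ly19, 58 in SU-DHL-5, 90 in MM1S and 95 in OPM-2, with no value for NU-DHL-1. U2932 and KMS-12-BM were intermediate for O. The class of OCI-Ly7 for H is resistant in the sample labels, which were followed, and its AUC0 ranked 13 of 14 DLBCL lines, whereas a supplementary listing of the study marks the line as sensitive to H. The resistant DLBCL lines lay above the sensitive DLBCL lines for each drug. The resistant MM line lay above both sensitive MM lines, but the interval of KMS-12-BM overlapped that of OPM-2 for H (307 to 337 against 313 to 339) and for O (95 to 118 against 83 to 107). In absolute terms the MM lines overlapped the other class, since sensitive OPM-2 had a higher AUC0 for C than resistant OCI-Ly7.

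**Figure D1:**
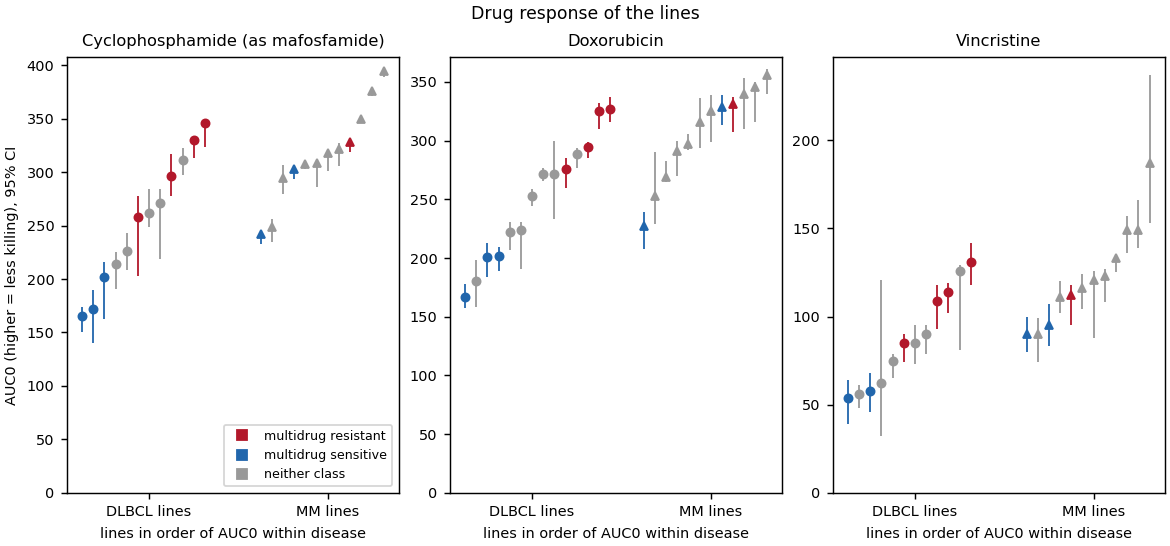
AUC0 with its 95% confidence interval (y axis) of each line, ordered by AUC0 within DLBCL (circles) and MM (triangles), for each drug. Red lines are the 5 multidrug resistant, blue the 5 multidrug sensitive and grey the 16 others. The axis words on less killing stand for less slowing of growth. The DLBCL classes lie apart for each drug, whereas OPM-2 at 329 sits beside KMS-12-BM at 331 for doxorubicin.

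The lines matched their labels by PAX5, MS4A1 and PRDM1, and less clearly by other plasma cell markers. PAX5, which maintains B-cell identity, had log2 values of 10.17 to 11.56 in the 7 DLBCL lines, 7.15 in KMS-12-BM, 4.40 in MM1S and 4.19 in OPM-2. MS4A1, which encodes CD20, was at 8.48 to 11.83 in the DLBCL lines and at 3.45 to 3.78 in the MM lines. PRDM1, the factor that drives plasma cell differentiation, was at 9.96 to 11.55 in the MM lines and at 4.02 to 7.98 in the DLBCL lines. SDC1, which encodes the plasma cell protein CD138, was at 11.49 in MM1S and 9.65 in OPM-2 but at 6.26 in KMS-12-BM, no higher than in DB at 6.26. The resistant MM line thus kept more PAX5 and CD79A (8.58 against 6.18 and 6.00) and showed less SDC1 than both sensitive MM lines. Its CD79B (7.73) lay between those of MM1S (8.06) and OPM-2 (6.40). CD38 did not follow the labels, at 7.34 to 8.06 in the MM lines and 5.73 to 10.98 in the DLBCL lines. TNFRSF17 was at 11.99 to 13.76 in the MM lines but also at 13.14 in U2932. XBP1 was at 10.85 to 12.45 in the MM lines and 8.10 to 10.93 in the DLBCL lines. IRF4, a marker of activated B-cell type DLBCL and plasma cells, was at 11.94 in RIVA, 11.52 in U2932 and 10.50 in OCI-Ly7, and at 5.44 to 9.48 in the other DLBCL lines. BCL6, the germinal centre repressor, was also high in both RIVA (11.09) and U2932 (12.53). Markers of other cell types were low: CD3D, CD3E and CD2 of T cells lay between 4.29 and 5.65 and CD14 and CSF1R of myeloid cells between 4.68 and 5.40. LYZ, a myeloid enzyme, was at 7.39 in NU-DHL-1 and at 2.99 to 4.18 in the rest. The mean over 8 NK and cytotoxic genes, centred by disease, was 1.26 in OCI-Ly19 and -0.16 to 0.13 in the rest. Both are sensitive lines, and the 24 genes of smallest p described below kept the direction of their difference with either left out. For 23 of these genes this was fixed in advance, since all resistant lines lay on 1 side of the sensitive lines of their disease.

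The classes were compared with limma in the 10 lines with a term for disease. None of 54613 probe-sets (0%) passed an adjusted p under 0.05, while 2829 (5.18%) had an unadjusted p under 0.05, and the smallest adjusted p was 0.348. Differences are therefore given as values below, with "higher" and "lower" as descriptions of the means. As a count without a test, 524 probe-sets (0.959%) were higher in every resistant line than in every sensitive line of the same disease, and 586 (1.07%) were lower; these are called separated. At 1 probe-set a gene, 604 of 19775 genes (3.05%) had an unadjusted p under 0.05 and were higher in the resistant lines, and 528 (2.67%) were lower. On the same footing 202 genes (1.02%) were separated upwards and 213 (1.08%) downwards, and the median log2 difference over all genes was 0.01. Whole profiles were compared pair by pair as a description. Across genes with a mean of at least 5, centred by disease, pairs of resistant DLBCL lines had a median correlation of -0.05 (6 pairs, -0.13 to 0.09), pairs of sensitive lines of 1 disease -0.08 (4 pairs, -0.18 to 0.11) and pairs of opposite class within a disease -0.16 (14 pairs, -0.26 to 0.13), with no independence between genes or pairs. Centring by disease itself pulls correlations between lines of 1 disease below 0, so these values have meaning only beside each other. For pairs of different diseases the median was 0.02 within the resistant class (4 pairs) and 0.00 within the sensitive class (6 pairs). Between classes it was 0.01 (11 pairs), so across diseases lines of 1 class were no more alike than lines of opposite class.

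The lowest genes of the resistant lines included feedback targets of ERK. DUSP6, the phosphatase that switches ERK off and that ERK itself induces, had log2 values of 3.22 in DB, 3.64 in OCI-Ly7, 5.62 in RIVA, 3.23 in U2932 and 3.30 in KMS-12-BM. In the sensitive lines it was at 9.48 in NU-DHL-1, 9.40 in OCI-Ly19, 7.09 in SU-DHL-5, 8.42 in MM1S and 8.86 in OPM-2. RIVA was the highest of the resistant lines and SU-DHL-5 the lowest of the sensitive ones, and the classes did not overlap. The log2 difference was -4.90 (SE 0.62, unadjusted p = 2.8e-05, adjusted p = 0.348). All 3 probe-sets of DUSP6 were separated, with differences of -4.90, -4.68 and -2.75.

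ETV5, an ETS transcription factor that ERK signalling induces, was at 5.06, 4.69, 6.40, 5.83 and 5.34 in the resistant lines, in the order given for DUSP6, and at 9.81, 9.46, 8.29, 7.16 and 7.83 in the sensitive lines. The classes again did not overlap, and RIVA was again the highest resistant line. The log2 difference was -3.26 (SE 0.46, unadjusted p = 6.94e-05, adjusted p = 0.367), and 4 of its 5 probe-sets were separated. SPRED1, an inhibitor of RAS signalling, was at 6.62, 8.25, 3.50, 5.21 and 3.04 against 9.21, 8.20, 8.11, 7.07 and 7.11. OCI-Ly7 overlapped the sensitive lines, and the difference was -3.02 (SE 0.82, unadjusted p = 0.00541, adjusted p = 0.941). DUSP4, a further phosphatase of this loop, differed by -2.46 (SE 1.01, unadjusted p = 0.0379), with -6.82 in MM and -0.76 in DLBCL. ETV4, the close relative of ETV5, differed by -1.33 (SE 0.39, unadjusted p = 0.00812) and was separated, with -1.77 in DLBCL and -0.21 in MM.

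Of 16 measured members of the ERK feedback list 13 were lower and 3 higher in the resistant lines. The median was -0.69 (-1.04 without RIVA, -0.59 without OPM-2), and -0.45 with the brightest probe-set of every gene. In the list 7 were lower with an unadjusted p under 0.05 (DUSP6, ETV5, SPRED1, DUSP4, PHLDA1, ETV4 and SPRY4), none was higher with such a p, and 3 were separated downwards. Over all genes the median was 0.01 and the shares were 2.67% lower with such a p and 1.08% separated downwards. Averaged over the list and centred on the median of each disease, the level was 0.90 in RIVA and between -1.49 and -0.11 in the other resistant lines, against 0.12 to 1.33 in the sensitive lines. RIVA was thus the exception among the resistant lines, and SU-DHL-5 and the MM lines were the least high of the sensitive ones.

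**Figure D2:**
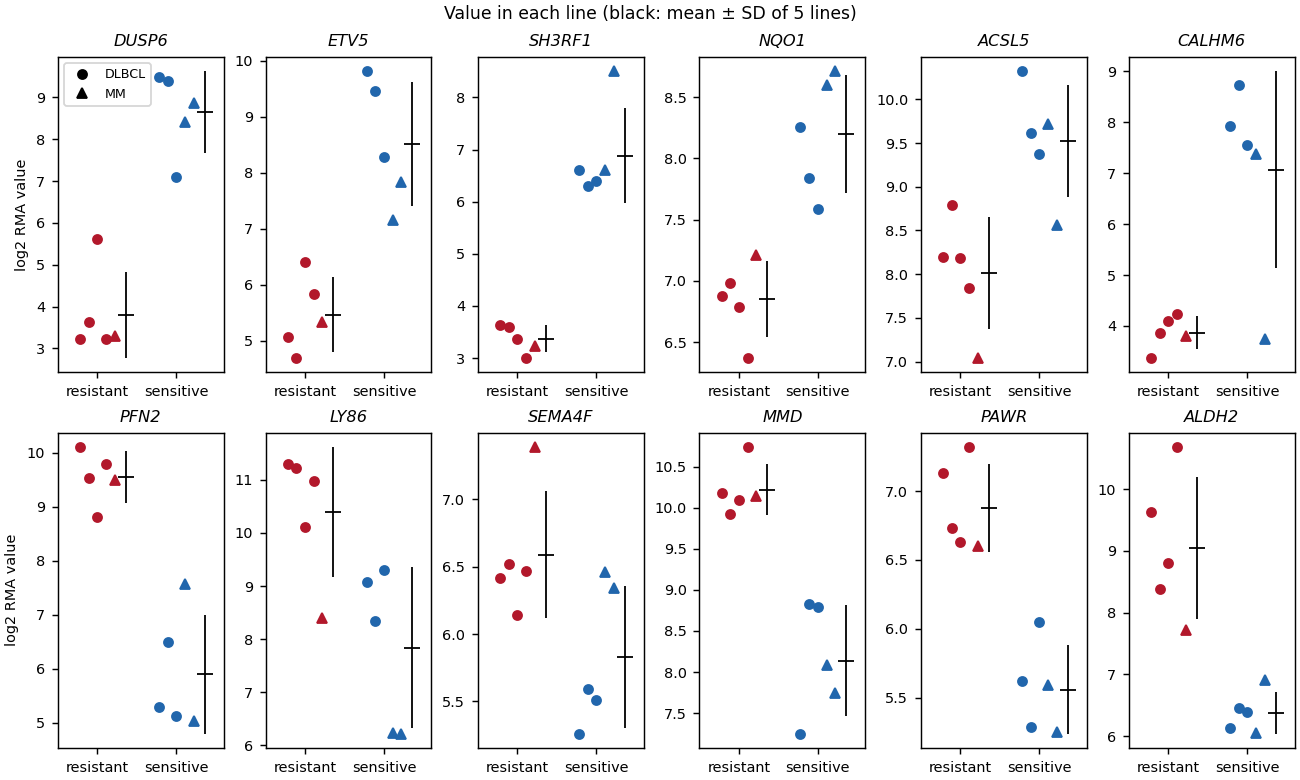
Log2 RMA value (y axis) of 12 genes in each of the 5 multidrug resistant (red) and 5 multidrug sensitive (blue) lines, with DLBCL as circles, MM as triangles and the mean ± SD in black. DUSP6, ETV5, SH3RF1 and NQO1 lie lower in all resistant lines, CALHM6 is as low in OPM-2 as in the resistant lines, and PFN2, MMD, PAWR and ALDH2 lie higher in all resistant lines.

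SH3RF1, a scaffold of JNK signalling with ubiquitin ligase activity, had the smallest p of all genes. Its log2 values were 3.63 in DB, 3.60 in OCI-Ly7, 3.36 in RIVA, 3.0 in U2932 and 3.23 in KMS-12-BM, and 6.61 in NU-DHL-1, 6.31 in OCI-Ly19, 6.40 in SU-DHL-5, 6.61 in MM1S and 8.50 in OPM-2. The resistant lines lay close together near the lower end of the array, OPM-2 was the highest line, and the gap between the classes was wide. The difference was -3.40 (SE 0.38, unadjusted p = 1.01e-05, adjusted p = 0.348), and both probe-sets were separated, although the second and brighter one differed by only -1.05 (SE 0.40, unadjusted p = 0.0292). NQO1, a quinone reductase of the antioxidant response, was at 6.88, 6.98, 6.79, 6.37 and 7.21 in the resistant lines and at 8.26, 7.84, 7.59, 8.60 and 8.71 in the sensitive ones. Every resistant line was lower than every sensitive line, with a difference of -1.22 (SE 0.17, unadjusted p = 5.74e-05, adjusted p = 0.348), and its 3 probe-sets were all separated.

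ACSL5, which activates long-chain fatty acids, was at 8.20, 8.79, 8.18, 7.84 and 7.04 against 10.32, 9.61, 9.37, 9.72 and 8.56. OCI-Ly7 lay above OPM-2, but within each disease the classes were apart, and the difference was -1.68 (SE 0.30, unadjusted p = 0.000376, adjusted p = 0.658). CALHM6, a channel protein induced by interferon, was at 3.37, 3.86, 4.09, 4.24 and 3.80 against 7.93, 8.74, 7.56, 7.38 and 3.74. OPM-2 was as low as the resistant lines, so CALHM6 was the only one of the 24 genes of smallest p that was not separated, and its difference was -3.51 (SE 0.72, unadjusted p = 0.000914, adjusted p = 0.768). The other lower genes among these 24 had differences of -1.44 to -0.61. COQ2, of coenzyme Q synthesis, differed by -1.44, LONP2, a protease of peroxisomes, by -0.95, and HPS1, which serves lysosome-related organelles, by -0.77. SLC25A28, which carries iron into mitochondria, differed by -0.66, the aminopeptidase DNPEP by -0.65 and the nuclear pore protein NUP54 by -0.61. In each of these 6 the classes were apart within both diseases.

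PFN2, a profilin that binds actin monomers, had the largest difference of the 12 leading higher genes. It was at 10.11 in DB, 9.53 in OCI-Ly7, 8.82 in RIVA, 9.80 in U2932 and 9.50 in KMS-12-BM, against 5.30 in NU-DHL-1, 6.49 in OCI-Ly19, 5.13 in SU-DHL-5, 7.57 in MM1S and 5.04 in OPM-2. The resistant lines lay close together and MM1S was the highest sensitive line, still below all of them. The difference was 3.72 (SE 0.52, unadjusted p = 5.74e-05, adjusted p = 0.348) from its single probe-set.

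LY86, the B-cell protein MD-1 that pairs with CD180, was at 11.30, 11.23, 10.11, 10.98 and 8.40 in the resistant lines and at 9.08, 8.34, 9.31, 6.23 and 6.22 in the sensitive ones. KMS-12-BM was below NU-DHL-1 and SU-DHL-5 but above both sensitive MM lines by about as much as the DLBCL classes differed, 2.18 in MM and 1.99 in DLBCL. With the disease term the difference was 2.04 (SE 0.27, unadjusted p = 4.07e-05, adjusted p = 0.348). SEMA4F, a membrane-bound semaphorin, was at 6.42, 6.52, 6.14, 6.47 and 7.39 against 5.26, 5.59, 5.51, 6.46 and 6.34. The classes were apart within each disease and overlapped across them, and the difference was 0.95 (SE 0.11, unadjusted p = 1.43e-05, adjusted p = 0.348).

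MMD, a membrane protein of the progestin and adipoQ receptor family, was at 10.18, 9.92, 10.10, 10.74 and 10.14 against 7.25, 8.83, 8.79, 8.09 and 7.75. The resistant lines were nearly level and all above the sensitive lines, with a difference of 2.02 (SE 0.33, unadjusted p = 0.000175, adjusted p = 0.517). PAWR, a pro-apoptotic protein also called PAR-4, was at 7.13, 6.73, 6.63, 7.32 and 6.60 against 5.62, 5.29, 6.05, 5.59 and 5.25. It was higher in every resistant line, with a difference of 1.27 (SE 0.19, unadjusted p = 0.000113, adjusted p = 0.466) and 7 of 8 probe-sets in this direction. PPARD, a nuclear receptor of fatty acid metabolism, differed by 1.04, with 2 of its 4 probe-sets in the opposite direction. DTX1, a regulator of Notch signalling, differed by 0.93, and CCDC28B, tied to cilia, by 1.66. The remaining higher genes were the zinc finger genes ZNF34 (0.93) and ZFAT (1.36), the ankyrin repeat gene ANKRD46 (1.41) and the pseudogene ZNF818P (2.18), whose probes may also read related genes. All 12 leading higher genes were separated. Of the 18 leading genes with several probe-sets, 15 had all of them in 1 direction.

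Among genes of drug handling the differences were few. ABCB1, which encodes P-glycoprotein, was at 3.52 to 3.83 in the resistant lines and at 3.56 to 4.78 in the sensitive ones, where NU-DHL-1 was the highest. ABCC1, a pump for glutathione conjugates, doxorubicin and vincristine, was at 8.64, 8.34, 8.29, 7.82 and 8.26 in the resistant lines and at 7.80, 7.87, 7.37, 7.78 and 7.18 in the sensitive ones. Only U2932 overlapped the sensitive lines, and the difference was 0.65 (SE 0.19, unadjusted p = 0.00934, adjusted p = 0.951), with both probe-sets higher. ABCC5 was separated, with a difference of 0.49 (SE 0.17, unadjusted p = 0.0176), but 1 of its 3 probe-sets was lower. Over the 11 measured efflux pumps 4 were higher and 7 lower. ABCG2 was highest in sensitive MM1S at 7.99 and had a difference of -0.60 (SE 0.38, unadjusted p = 0.15).

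ALDH2, the mitochondrial aldehyde dehydrogenase, was at 9.63, 8.38, 8.81, 10.68 and 7.72 in the resistant lines and at 6.13, 6.45, 6.39, 6.05 and 6.90 in the sensitive ones. Every resistant line was above every sensitive line, by 2.55 (SE 0.50, unadjusted p = 0.000679, adjusted p = 0.743) with the disease term. ALDH1A1 and ALDH3A1, which inactivate the aldehyde intermediate of cyclophosphamide, differed by 0.01 (SE 0.16) and -0.13 (SE 0.16), and ALDH1A1 stayed at 3.35 to 4.18 in all 10 lines. In the list of 15 dehydrogenases 8 were higher and 7 lower. GSTP1, a glutathione transferase, was at 11.57 to 12.91 in the resistant lines and at 9.11 to 12.44 in the sensitive ones, where NU-DHL-1 (9.11) and OPM-2 (9.44) were low. Its difference was 1.59 (SE 0.65, unadjusted p = 0.0377), and that of GSTA4 was 1.66 (SE 0.61, unadjusted p = 0.0241). The 27 glutathione and thiol genes split into 14 higher and 13 lower. CBR1, which reduces doxorubicin to its alcohol, ranged from 4.35 to 9.65 among the resistant lines alone and differed by 0.06 (SE 1.22).

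Of the drug targets, TOP2B, the topoisomerase II of resting cells, differed by -0.41 (SE 0.47) and TUBB, a main β-tubulin, by -0.03 (SE 0.19). The TOP2A probe-set of the largest SD was dim, at 5.24 to 6.95, and differed by -0.34 (SE 0.34), whereas the brightest TOP2A probe-set differed by 0.09 (SE 0.21). TUBB2A, a β-tubulin isotype, was at 10.81, 10.68, 10.71, 11.82 and 8.04 against 5.60, 8.78, 8.20, 7.41 and 7.70. It was separated with a difference of 2.64 (SE 0.73, unadjusted p = 0.00568, adjusted p = 0.941), with 3.48 in DLBCL and 0.49 in MM. TUBB3 differed by 0.42 (SE 0.20, unadjusted p = 0.0598). Of 21 tubulins and microtubule binders 15 were higher, with a median of 0.26 (0.16 without NU-DHL-1). Of 13 spindle checkpoint genes 11 were lower, with a median of -0.22 (-0.09 without OCI-Ly19 and -0.14 without U2932) and none with an unadjusted p under 0.05. Of all genes 51.1% had a difference above 0.

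**Figure D3:**
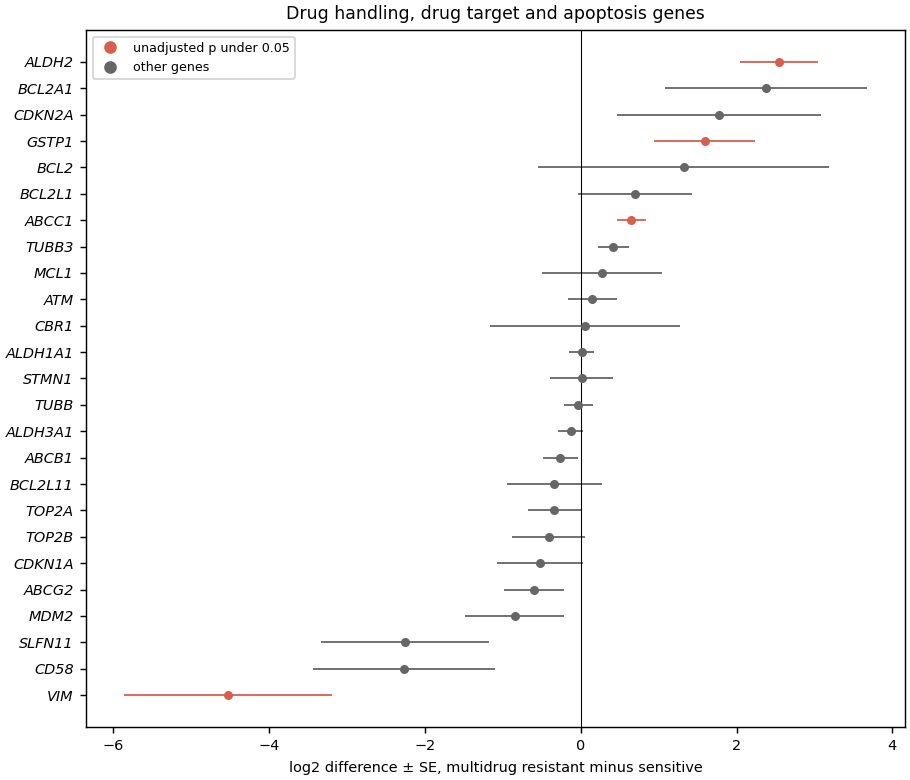
Log2 difference between multidrug resistant and sensitive lines with its SE (x axis) for 25 genes (y axis). They cover drug handling, drug targets, apoptosis, p53, the cell cycle and the damage response. VIM and CD58 are also shown and belong to the study's own gene signatures of resistance. ALDH2 (2.55), GSTP1 (1.59), ABCC1 (0.65) and VIM (-4.53) had an unadjusted p under 0.05 (red), and none passed the adjusted threshold.

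Inhibitors of apoptosis varied more between lines than between classes. BCL2, the main inhibitor of mitochondrial apoptosis, was at 10.72 in DB, 4.03 in OCI-Ly7, 12.47 in RIVA, 12.13 in U2932 and 9.95 in KMS-12-BM, against 9.71, 10.91, 4.22, 9.44 and 9.05. Resistant OCI-Ly7 and sensitive SU-DHL-5 were both near the lower end of the array, and the difference was 1.32 (SE 1.87, unadjusted p = 0.498). BCL2A1, an NF-κB target, was high in RIVA (11.13) and U2932 (12.23) and differed by 2.38 (SE 1.30, unadjusted p = 0.102). BCL2L1 and MCL1 differed by 0.70 (SE 0.73) and 0.27 (SE 0.77), and the activator BCL2L11 by -0.34 (SE 0.61). HRK, a pro-apoptotic BH3-only member of the family, was higher by 1.69 (SE 0.71, unadjusted p = 0.0423).

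In the p53 and cell cycle lists the tumour suppressor RB1 stood out. It was at 8.50 in DB, 10.14 in OCI-Ly7, 6.22 in RIVA, 7.76 in U2932 and 7.05 in KMS-12-BM, against 11.29, 10.60, 10.28, 8.09 and 9.59. RIVA was the lowest line, and the classes were apart within each disease, with a difference of -2.35 (SE 0.69, unadjusted p = 0.00825, adjusted p = 0.946). The second probe-set of RB1 had the same sign without reaching an unadjusted p under 0.05. RBL2, its relative, differed by -0.75 (SE 0.25, unadjusted p = 0.0146). Of 18 measured p53 targets 14 were lower, with a median of -0.27 (-0.17 without SU-DHL-5). Of all genes 51.1% had a difference above 0, and 2.67% were lower and 3.05% higher with an unadjusted p under 0.05. SESN1, which restrains growth under stress, differed by -1.70 (SE 0.57, unadjusted p = 0.0157) and CCNG1 by -0.89, whereas RRM2B, which supplies nucleotides for repair, differed by 1.42 (SE 0.45, unadjusted p = 0.0117). CDKN1A (p21) and MDM2 differed by -0.52 (SE 0.55) and -0.85 (SE 0.64). WEE1, the kinase that holds cells before mitosis, was at 9.86, 9.71, 10.08, 10.30 and 9.73 against 8.67, 8.97, 9.45, 8.55 and 9.39. It was higher in every resistant line, by 0.90 (SE 0.22, unadjusted p = 0.00257, adjusted p = 0.884). TP53BP1 and H2AX, which mark and process double strand breaks, both differed by 0.76 with an unadjusted p = 0.0238 and 0.0285, and CDC25B, the phosphatase that opposes WEE1, by 0.64 (unadjusted p = 0.0383). In total 13 of 17 damage checkpoint genes were higher with a median of 0.14 (0.09 without NU-DHL-1 and 0.08 without KMS-12-BM). Of the repair genes, 10 of 17 of homologous recombination and Fanconi anaemia and 9 of 16 of nucleotide excision repair were higher. The lists were not tested against each other. Proliferation genes split into 13 higher and 17 lower.

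SLFN11, which blocks stressed replication forks, was at 4.11, 4.89, 6.92, 8.14 and 5.92 in the resistant lines and at 7.49, 9.85, 9.48, 8.50 and 4.45 in the sensitive ones. OPM-2 was low and U2932 high for their classes, and the difference was -2.26 (SE 1.08, unadjusted p = 0.0669). CD58, the ligand by which T cells and NK cells bind, was at 6.05, 3.41, 7.68, 9.25 and 9.16 against 8.92, 11.40, 7.46, 11.11 and 9.75, a difference of -2.27 (SE 1.17, unadjusted p = 0.0846). VIM, an intermediate filament, was at 6.40 to 8.20 in the resistant lines and at 12.32 to 14.05 in the sensitive lines other than SU-DHL-5, which was at 6.33. Its difference was -4.53 (SE 1.34, unadjusted p = 0.0086, adjusted p = 0.946). Without SU-DHL-5, the sensitive line that went against its class for VIM, it was -6.18, a value larger by construction. The cytoskeleton list, VIM included, split into 11 higher and 12 lower. At an unadjusted p under 0.05 VIM, TPM4, TIMP1 and TPM1 were lower, and PFN2, described above, was higher (3.72). Of all genes 2.67% were lower and 3.05% higher with such a p.

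Genes of immune recognition were mostly lower in the resistant lines. Of 18 measured genes of MHC class I presentation 16 were lower, with a median of -0.59 (-0.39 without OCI-Ly19), 6 lower at an unadjusted p under 0.05 and none higher. Over all genes 51.1% had a difference above 0 and 2.67% were lower with such a p. HLA-E, a class I molecule read by NK cells, was at 6.44 in DB, 10.19 in OCI-Ly7, 10.12 in RIVA, 9.89 in U2932 and 9.75 in KMS-12-BM, against 11.99, 11.88, 10.85, 11.96 and 11.22. It was lower in every resistant line and lowest in DB, with a difference of -2.25 (SE 0.73, unadjusted p = 0.0138) and all 3 probe-sets lower. PSMB10, a subunit of the immunoproteasome, was at 9.21, 9.96, 9.75, 9.67 and 8.65 against 10.15, 10.30, 10.36, 11.12 and 10.68. It too was lower in every resistant line, by -1.08 (SE 0.29, unadjusted p = 0.00538, adjusted p = 0.941). The peptide trimming enzyme ERAP1 differed by -1.43 in its most variable probe-set but by 0.82 in its brightest. With the brightest probe-set of every gene the median of the list was -0.22. The list mean, centred by disease, was -1.39 in DB and -0.56 to -0.14 in the other resistant lines. In the sensitive lines it was -0.35 to 0.36, so the classes overlapped, with SU-DHL-5 (-0.19) and OPM-2 (-0.35) below OCI-Ly7 (-0.14).

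Of 44 interferon-stimulated genes 31 were lower, with a median of -0.45, 11 lower at an unadjusted p under 0.05 and 2 higher (MX2 and GBP5), beside 2.67% and 3.05% of all genes. PARP14 was at 5.46, 5.62, 7.62, 6.91 and 5.03 in the resistant lines and at 9.29, 8.78, 8.94, 7.30 and 5.57 in the sensitive ones. The classes were apart within each disease, by -2.60 in DLBCL and -1.41 in MM, and the difference was -2.26 (SE 0.52, unadjusted p = 0.00198, adjusted p = 0.872), while its second probe-set had the opposite sign. DTX3L, the ligase that partners PARP9, differed by -2.93 (SE 0.88, unadjusted p = 0.00923) and was separated, with RIVA and U2932 at 8.73 and 8.50 and DB and OCI-Ly7 at 5.00 and 4.61. EIF2AK2, the kinase that senses double-stranded RNA, differed by -1.41 (SE 0.50, unadjusted p = 0.0198), with -0.70 in DLBCL and -3.24 in MM, where KMS-12-BM was at 5.41. RIVA had the highest list mean of the resistant lines, 0.44 after centring by disease, and OPM-2 the lowest of all but DB, at -0.54 against -0.60. MHC class II genes were lower in 10 of 13, with a median of -0.95 (-1.59 without OCI-Ly19 and -0.59 without MM1S). Of all genes 51.1% had a difference above 0. However, the class II list mean ranged from -2.16 in OPM-2 to 1.01 in SU-DHL-5 among the sensitive lines alone. HLA-DQA1 was at 3.86 to 4.36 in all lines other than OCI-Ly19 (9.69) and SU-DHL-5 (11.67), and its brightest probe-set gave a difference of 0.26 where the most variable gave -3.26.

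NF-κB genes showed the opposite sign. Of 22 subunits and targets 21 were higher in the resistant lines and only CD44 lower, with a median of 0.60 and 3 higher at an unadjusted p under 0.05. Of all genes 51.1% were above 0 and 3.05% were higher with such a p. REL, an NF-κB subunit, was at 9.45 in DB, 8.71 in OCI-Ly7, 9.72 in RIVA, 9.43 in U2932 and 7.53 in KMS-12-BM, against 5.82, 7.65, 8.24, 3.74 and 6.75. It was separated within both diseases, with a difference of 2.14 (SE 0.63, unadjusted p = 0.00836, adjusted p = 0.946) and all 5 probe-sets higher with such a p. RELB, a subunit of the alternative pathway, differed by 1.41 (SE 0.45, unadjusted p = 0.0125) and the receptor CD40 by 1.14 (SE 0.36, unadjusted p = 0.0115). The list mean, centred by disease, was 0.82 in RIVA, 0.50 in U2932 and 0.37 in KMS-12-BM, above all sensitive lines (-1.19 to 0.19). In DB (-0.87) and OCI-Ly7 (-0.93) it lay within the range of the sensitive lines. Without RIVA and U2932 the median of the list was 0.24.

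Mature B-cell markers were higher in 11 of 18, with a median of 0.70, 6 higher at an unadjusted p under 0.05 and 3 separated upwards. The shares of all genes were 51.1%, 3.05% and 1.02%, so the count by sign alone lay near that of all genes. CD79A, of the B-cell receptor, was at 12.08, 12.16, 12.09, 11.56 and 8.58 against 11.29, 10.23, 11.68, 6.18 and 6.00. Among the DLBCL lines U2932 was just below SU-DHL-5, and the difference was 1.35 (SE 0.36, unadjusted p = 0.00472, adjusted p = 0.941). CD37, a tetraspanin of B cells, differed by 2.66 (SE 0.90, unadjusted p = 0.0163), and MS4A1 by 1.15 (SE 0.43, unadjusted p = 0.0247), with MM lines at the lower end of the array in both classes. PLCG2 was higher by 1.01 and VAV3, an exchange factor of receptor signalling, lower by -2.60 (SE 0.67, unadjusted p = 0.0039), and B-cell receptor signalling genes split into 12 higher and 6 lower. FOXP1 differed by 0.93 (SE 0.40, unadjusted p = 0.0475), while the activated B-cell and germinal centre marker lists had 12 of 23 and 10 of 16 higher. The median of the activated B-cell list was 0.05, and 0.90 without DB. MAML3, a germinal centre marker and Notch co-activator, was at 3.0 to 4.75 in the resistant DLBCL lines and at 7.57 to 7.90 in the sensitive ones, with all MM lines at 3.49 to 3.73. Genes of the glucocorticoid response were lower in 9 of 10, with a median of -0.47 (-0.93 without RIVA and U2932) and none with an unadjusted p under 0.05. For the lists of other cell types (T, NK, myeloid, stromal and erythroid) the medians were -0.04 to 0.06, and the only member with an unadjusted p under 0.05 was THY1 (-0.23).

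**Figure D4:**
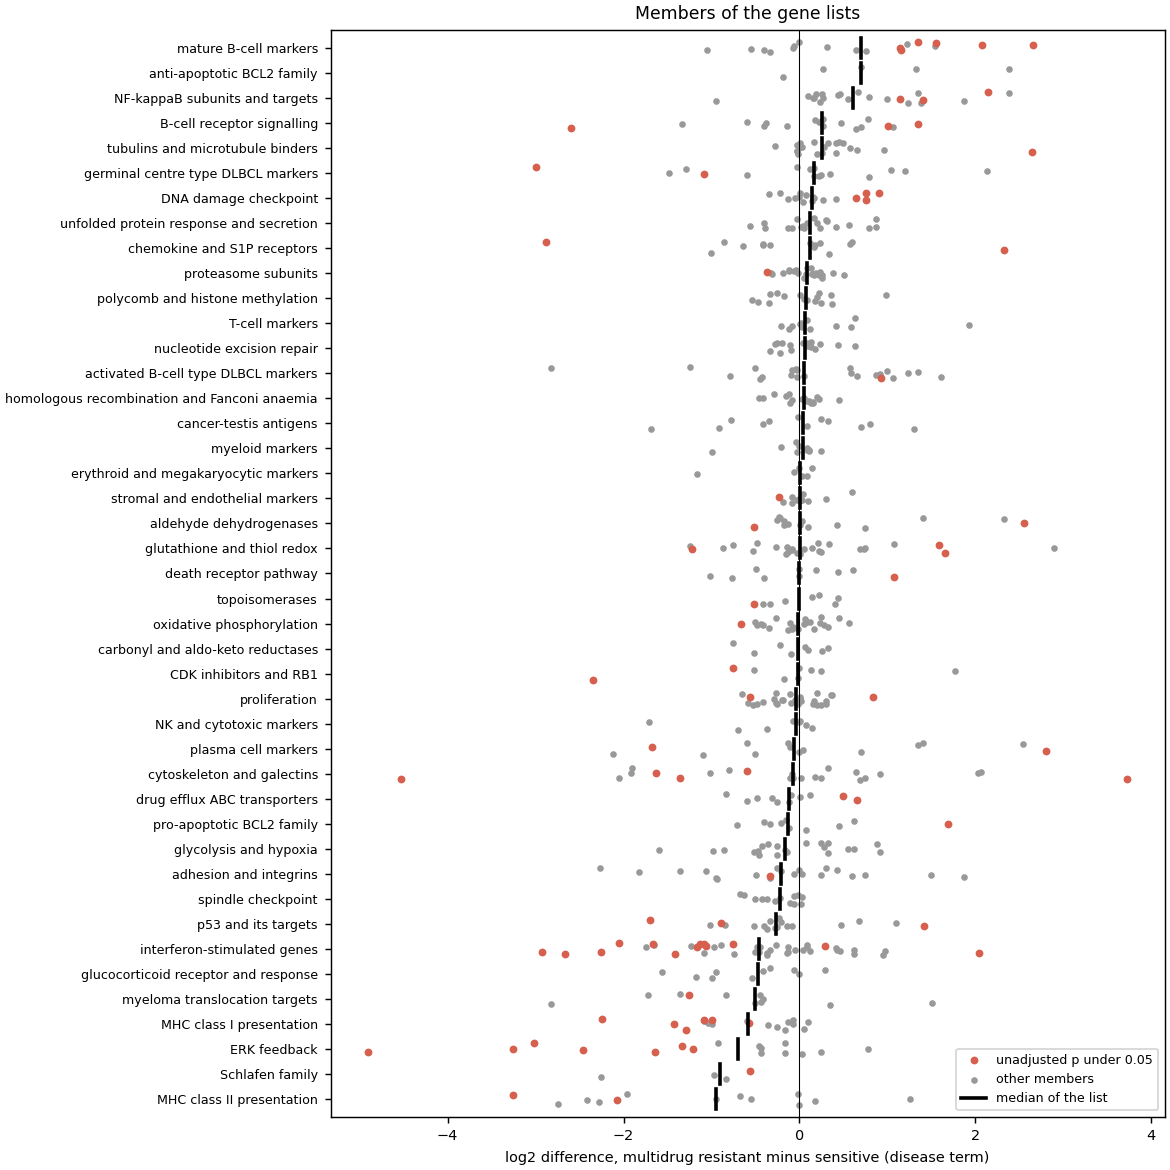
Log2 difference between multidrug resistant and sensitive lines (x axis) of each member of 43 gene lists (y axis), with members of unadjusted p under 0.05 in red, other members in grey and the median of each list as a black bar. NF-κB genes (median 0.60) lie mostly to the right and ERK feedback (-0.69) and MHC class I genes (-0.59) mostly to the left of 0.

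The interaction of class and disease, which asks whether the difference in MM departs from that in DLBCL, passed an adjusted p under 0.05 in limma for 289 of 54613 probe-sets (0.529%), 171 of them with the more positive difference in MM. Each of these rests on the single line KMS-12-BM as the resistant side of MM, so the class and the line cannot be told apart there. None of the 24 leading genes was among them, which was close to fixed in advance. These 24 were picked by smallest p in a fit with 1 difference for both diseases, and 23 were separated within both. CCR1, a chemokine receptor, was at 4.37 in KMS-12-BM and at 12.29 and 11.86 in MM1S and OPM-2, a difference of -7.71 in MM against -1.0 in DLBCL (interaction adjusted p = 0.0877). CD27 differed by 6.06 in MM and 1.54 in DLBCL (interaction adjusted p = 0.643).

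The 16 lines of neither class allowed a look at the same genes in lines that the comparison did not use. They are not wholly independent of it, since KMS-12-PE is a sister line of KMS-12-BM. Each of the 16 lines was given a net class score, the number of drugs it was resistant to minus the number it was sensitive to. A slope of expression per unit of score was fitted with a disease term. The fit without KMS-12-PE also gave 0 calls, which cannot show how far that line carries the slope of a single gene. In KMS-12-PE ETV5 was at 4.91, the lowest of the 16 lines, and DUSP6 at 3.21. Slopes of single genes without it are not given here. Again none of 54613 probe-sets passed an adjusted p under 0.05 with limma, and 2949 had an unadjusted p under 0.05. Of the 24 leading genes 13 had a slope of the same sign as their difference, beside 51.1% of all genes, and 2 of them had an unadjusted p under 0.05, beside 2.91% of all genes. These were PFN2, with a slope of 1.55 (SE 0.68, unadjusted p = 0.0374, adjusted p = 0.916), and ETV5, with -1.13 (SE 0.52, unadjusted p = 0.0481, adjusted p = 0.916). PFN2 was at 10.77, 8.42, 10.15, 8.01 and 10.68 in the lines of score 1 (SU-DHL-4, KMM-1, KMS-11, KMS-12-PE and LP-1) and at 5.22, 4.83, 6.45 and 10.09 in those of score -1 (FARAGE, NU-DUL-1, MC-116 and MOLP-8), of which only MOLP-8 was high. DUSP6 had a slope of -1.32 (SE 0.87, unadjusted p = 0.152), SH3RF1 of -0.22 (SE 0.58) and NQO1 of 0.25 (SE 0.40), the last opposite in sign to its difference. For LY86 the slope was -0.74 (SE 0.61), and for ALDH2 -0.18 (SE 0.56), both opposite to their differences.

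VIM had a slope of -2.02 (SE 0.83, unadjusted p = 0.0277), CD58 of -2.04 (SE 0.78, unadjusted p = 0.0198) and ABCC5 of 0.62 (SE 0.28, unadjusted p = 0.0409), each of the sign seen in the 10 lines. The same held for SPRED1 at -0.87 (SE 0.41, unadjusted p = 0.0485). It held for ERAP1 at -1.26 (SE 0.33, unadjusted p = 0.00184) only in its most variable probe-set, since its brightest differed by 0.82 in the 10 lines. VIM and CD58 belong to the study's own gene signatures of resistance. Those were fitted to the drug response of this panel, with lines of this set among them. The slopes of VIM and CD58 are therefore not an independent check. ALDH3A1 (0.24, unadjusted p = 0.00617) and the stromal marker THY1 (0.63, unadjusted p = 0.0319) had slopes opposite to their differences of -0.13 and -0.23, and the endothelial marker VWF had a slope of 0.14 (unadjusted p = 0.0348) beside a difference of 0.02. CDKN1A had a slope of -1.31 (SE 0.32, unadjusted p = 0.000884, adjusted p = 0.916). Among the lists, ERK feedback had a median slope of -0.37 with 14 of 16 members below 0, and interferon-stimulated genes -0.28. Over all genes 11189 of 19775 slopes were above 0. MHC class II genes had a median slope of 0.85, opposite to their difference, and the NF-κB list had 0.03. The median slope over all genes was 0.02.

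**Figure D5:**
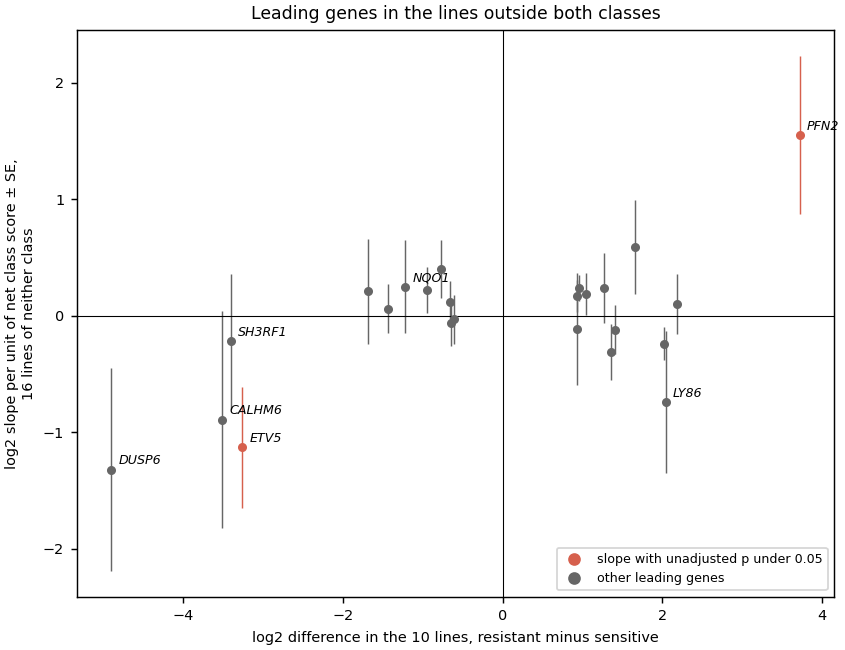
Slope of log2 expression per unit of net class score with its SE in the 16 lines of neither class (y axis) against the log2 difference between multidrug resistant and sensitive lines (x axis), for the 24 leading genes. PFN2 (1.55) and ETV5 (-1.13), in red, had slopes with an unadjusted p under 0.05 and the sign of their difference, and most other genes lie near 0 on the y axis.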

How the data were processed

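The deposited log2 values were made by the authors with RMA from the affy package in R 3.0.1, per the submitters' notes. RMA brings the arrays to a common distribution, so a change shared by most genes would not show. Values ranged from 2.41 to 15.09, with array medians of 5.65 to 5.72. The 62 control probe-sets were left out, and 41091 of 54613 named 1 gene, 1801 several and 11721 none. For each of 19775 genes the probe-set that varied most (by SD) among the 14 DLBCL lines was used. All probe-sets went into 1 linear model with a disease term (limma 3.58.1, R 4.3.3), and adjusted by Benjamini-Hochberg (threshold 0.05); every p-value is from limma. The fit was tested on simulated data. The number of arrays limits the precision.

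Classes and AUC0 were copied from the sample labels, in which the doxorubicin class stands under a second cyclophosphamide entry; recomputed tertiles gave all 74 classes. No batch or scan date was given in the sources used here. Genes named are the 12 higher and 12 lower of smallest p, 25 drug-related genes, up to 3 members of each of 43 lists with an unadjusted p under 0.05, and cell type markers; further list members at that threshold, and the values of single members, were named after their values were seen. Members and lists were chosen with earlier results of these data known. Of 710 list members 54 had no probe-set named for them alone and were not analysed here. Alternatives were other probe-sets, priors and scalings, other sets of lines and terms, and each line left out in turn. The chromosome medians were added after seeing the data, and genes were placed on chromosomes by symbol through the RefSeq table of GRCh38.p14. Figures were drawn with matplotlib 3.10.9 in Python 3.11.15.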

Additional observations from a re-analysis of the deposited data

Results flagged for a closer look

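In each class of 5 lines the 24 leading genes were looked at for a line far from the other 4, after centring on the median of its disease. Among 48 such groups 2 held one, and chance alone flags some groups, at the 95% critical value. Both were of SH3RF1, for KMS-12-BM at 3.23 among the resistant lines and for MM1S at 6.61 among the sensitive lines. In each the gap to the nearest other line was 0.78 of the range of the class, against a critical value of 0.71. Before centring both values lay within the range of their class, which ran from 3.0 to 3.63 in the resistant lines and from 6.31 to 8.50 in the sensitive ones.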

How the results depend on the processing

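The count of called probe-sets was 0 in the reported comparison and in most alternatives; by limma it was 1 (SH3RF1) with values centred and scaled by disease, 110 for the mean of the DLBCL and MM differences with all 26 lines in the fit and 312 for that mean in the 10 lines. In both KMS-12-BM alone carries the resistant side of MM, by construction, and 61 of the 110 and 235 of the 312 also passed the interaction. Leaving out each line gave 0 to 4 calls. There were 4 without SU-DHL-5 (probe-sets of ADD2, DUSP6 and VIM) and 2 without OPM-2 (CALHM6 and SH3RF1). The count separated within both diseases, 1110 in all, was 415 and 414 with 1 probe-set a gene (largest SD and highest mean), where fewer are tested, and 3846 without RIVA and U2932. Leaving out 1 line gave 1605 to 2714, fewer lines being easier to separate by construction. It rose by over 1.5 times without DB, NU-DHL-1, OCI-Ly7, OCI-Ly19, RIVA, SU-DHL-5 or U2932, and no value could be had without KMS-12-BM or with DLBCL lines alone. The 24 leading genes kept their direction in all 575 values under the alternatives. They were chosen by smallest p in these same lines and 23 were separated, so leaving out a line could not turn the sign of those 23. With the brightest probe-set ERAP1 turned to 0.82 and HLA-DQA1 to 0.26. The interaction gave 307 calls with a variance trend, and the slopes in the other lines gave 0 without KMS-12-PE and 0 with 9 lines of score 1 or -1. List medians under leave-one-out ran from -1.04 (without RIVA) to -0.59 for ERK feedback, from -0.86 (without SU-DHL-5) to -0.39 for MHC class I, from -0.58 to -0.32 for interferon-stimulated genes and from 0.41 to 0.82 for NF-κB. No paired analysis was possible because the lines are separate and share no replicate numbers. Genes near the lower end of the array, such as SH3RF1 in the resistant lines, have differences that the array background limits.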

Other observations

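Placing genes on chromosomes gave values that no gene list covered. Among 13733 genes with a mean of at least 5, the share separated within both diseases was 1.08% upwards and 1.18% downwards, with a median difference of 0.00. On chromosome 7, 18 of 629 genes were separated upwards and 3 downwards, with a median log2 difference of 0.12, and chromosome 20 had 8 and 1 of 430 genes with a median of 0.06. On chromosome 4 none of 428 genes was separated upwards and 10 downwards, with a median of -0.16, chromosome 5 had 2 and 11 of 560 with -0.12, and chromosome 10 had 3 and 11 of 527 with -0.08. With dim genes included the medians were -0.06 for chromosome 4 and -0.05 for chromosome 5, and without RIVA and U2932 that of chromosome 20 was 0.15.

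Chromosome 18, which carries BCL2, had the highest median of the autosomes at 0.22 over 175 genes. By line its median was 0.38 in RIVA, 0.10 in DB, 0.06 in U2932, 0.00 in KMS-12-BM and -0.11 in OCI-Ly7, against -0.13 to 0.01 in the sensitive lines, with RIVA the highest. Without RIVA and U2932 it was 0.05. Chromosome 7 was at 0.16 in DB, 0.15 in RIVA and 0.06 in KMS-12-BM but at -0.03 in OCI-Ly7 and -0.06 in U2932, and chromosome 4 at -0.18 in KMS-12-BM and 0.18 in OPM-2. The chromosome 4 median was -0.06 without KMS-12-BM. Neighbouring genes are not independent, these medians were chosen after the values were seen, and copy number was not measured.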
